A study of Mus musculus with 2 samples.

Results

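The genes described here are 10 genes of alternative, or M2-type, macrophage activation: Mrc1, Arg1, Arg2, Il10, Retnla, Mgl2, Clec10a, Il4ra, Ccl24 and Pdgfb. They were chosen by name, with scavenger receptors other than Mrc1 left out, and each of the 10 names matched 1 of the 22322 Ensembl gene IDs in the deposited table. The comparison was between 1 library of liver macrophages from FABP7 KO mice and 1 library from WT mice, so the differences cannot be checked against replicates and p-values were not computed. The KO is systemic, so cells other than macrophages lack FABP7, a fatty acid binding protein, as well. The labels give C57BL/6 as the strain of both groups, while the methods describe the KO line as made on a C57BL/6 J background, and the mice were young adult males by the methods. All of them received 500000 MC38 cells, a mouse colon carcinoma line, in 100 µl by injection into the spleen, and on day 10 macrophages were taken from their metastatic livers by positive selection for F4/80. The label of the KO library gives the genotype as a knockdown in 1 field and as KO in its title, and none of the sources used here says how many mice were pooled. Fabp7 stood at 0.69 FPKM in the KO library and at 354 FPKM in the WT library. FPKM scales the fragments of a gene to its length and to the depth of the library, so levels can be set side by side between genes.

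Alternative activation is the state that macrophages enter on exposure to IL-4 or IL-13, which signal through IL4Rα and the transcription factor STAT6. It is known for endocytic lectins, arginase, small secreted proteins and chemokines, and IL-10 drives a related, deactivated state that shares some of these genes. In the liver, resident Kupffer cells carry several of the markers without infection or injury. Sinusoidal endothelial cells express Mrc1, and hepatocytes express Arg1 for the urea cycle, so these names do not mark macrophages alone in a liver preparation. The comparison addresses whether loss of FABP7 goes with a change in this M2 program.

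The 10 genes did not move together. Pdgfb, Arg2 and Il10 were higher in FABP7 KO macrophages than in WT macrophages by a rule of size, an absolute log2 ratio of FPKM + 1 of at least 1, and no gene of the set was lower by this rule. Across all 10770 measured genes, those that reached 1 FPKM in the KO or the WT library, the same rule took 5.16%, with 2.21% higher and 2.95% lower in KO. Mrc1 had a ratio above 0, at 0.49, while Ccl24, Il4ra, Arg1 and Clec10a had ratios from -0.31 to -0.085. Retnla and Mgl2 stayed under 1 FPKM in both libraries. Thus 8 of the 10 genes passed the floor, 4 of them with a ratio above 0 and 4 below 0. The median log2 ratio was 0.20 over these 8 and 0.16 over all 10, beside 0.0036 over all measured genes. The median says little about single genes here, since leaving out 1 gene moved it to between -0.085 and 0.49.

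The genes spanned a wide range in level. In the KO library Mrc1 was the highest and Mgl2 the lowest, a 2299-fold range, and in the WT library the same 2 genes stood at the ends of a 2026-fold range. Mrc1 and Ccl24 together made up 87.6% of the summed FPKM of the set in KO and 88.3% in WT macrophages, so the sum of 837 FPKM in KO and 743 FPKM in WT reports on these 2 genes. Without them the sum was 104 FPKM in KO and 86.8 FPKM in WT. The order of levels in KO was Mrc1, Ccl24, Il4ra, Il10, Clec10a, Pdgfb, Arg2, Arg1, Retnla and Mgl2. In WT it was Mrc1, Ccl24, Il4ra, Clec10a, Il10, Arg1, Pdgfb, Arg2, Retnla and Mgl2. Some neighbours in these orders could not be separated within counting error. In KO, the intervals of Il10 and Clec10a overlapped, as did those of Arg2 and Arg1 and of Retnla and Mgl2, and in WT those of Il10 and Arg1 and of Retnla and Mgl2 overlapped.

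**Figure D1:**
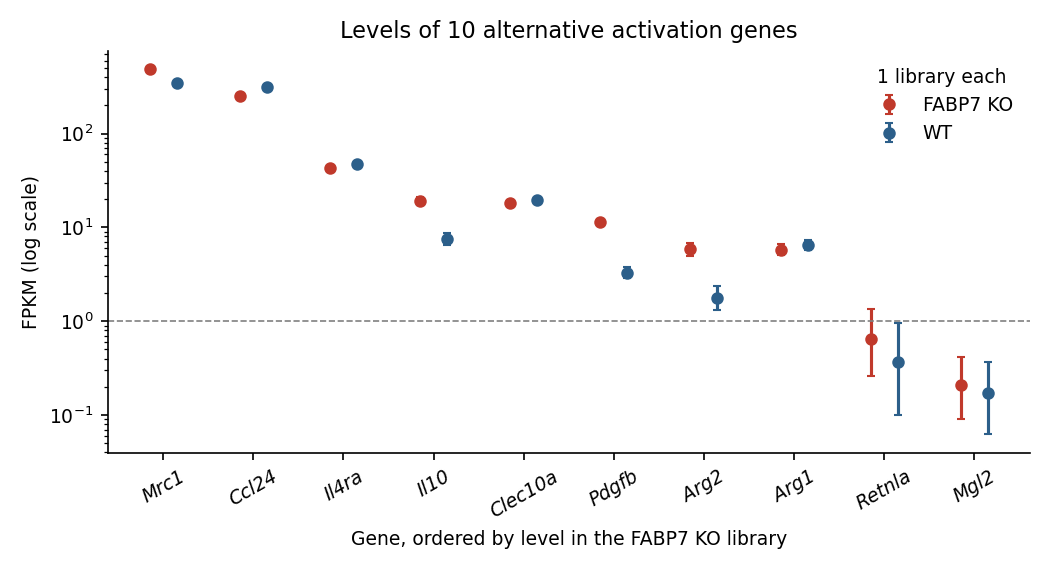
FPKM on a log axis for each of the 10 genes (x axis, ordered by level in the KO library) in the FABP7 KO library (red) and the WT library (blue), 1 library each, with 95% counting intervals from estimated fragments. The dashed line is the floor of 1 FPKM, and Il10, Pdgfb and Arg2 show the widest gaps among genes above it, with KO on top.

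The files hold no counts, but low values of short genes fell near whole numbers of fragments, which gave a depth of about 17880000 fragments for the KO library and 18040000 for the WT library. With the exon length of each gene this depth gives an estimated number of fragments and a 95% Clopper-Pearson interval of the ratio. The intervals cover counting error in these 2 libraries only and say nothing of the difference between mice. As checks of the cell type, the F4/80 gene Adgre1 was at 925 FPKM in KO and 864 FPKM in WT. The Kupffer cell lectin Clec4f was at 4156 FPKM in KO and 3188 FPKM in WT. Kupffer cell markers were divided, since of 10 listed, all measured, 6 had a ratio above 0 and 4 below 0. Marco, 1 of those below 0, was at 714 FPKM in KO and 1377 FPKM in WT. All 12 pan-macrophage markers were measured, with a median log2 ratio of 0.20 and sums of 20552 FPKM in KO and 17101 FPKM in WT. All 10 proliferation genes listed were lower in KO by the size rule, or 9 of them under 2 other scalings, with a median log2 ratio of -2.53. Since the pan-macrophage markers were themselves higher on balance, the ratios were also computed with KO divided by their median ratio of 1.15. This shifted genes high in KO by about -0.20 on the log2 scale and genes low in KO by less. These are bulk libraries, in which fewer cells of a type and less RNA per cell cannot be told apart.

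Among the lectin receptors, Mrc1, which encodes the mannose receptor CD206 that takes up mannosylated glycoproteins, was the most abundant gene of the set. It stood at 483 FPKM in the KO library, against 344 FPKM in the WT library. This placed it at rank 94 of the measured genes in KO and at rank 194 in WT. The ratio was 1.40 (counting interval 1.38 to 1.42), above 1 and short of the size rule. With about 55005 fragments in KO and 39592 in WT, Mrc1 had the most precise value of the set. Per unit of Adgre1, Mrc1 was 0.522 in KO and 0.399 in WT. Adgre1 itself had a ratio of 1.07, below the median ratio of 1.15 of the pan-macrophage markers. Scaled to those markers, the interval of Mrc1 was 1.21 to 1.24. Endothelial markers, taken as a sum, were also higher in KO. Of 15 markers of liver sinusoidal endothelial cells, 13 were measured and 8 were higher in KO by the size rule. Of these 8, Tek reached the floor in the KO library alone. The summed levels were 288 FPKM in KO and 154 FPKM in WT, and Wnt9b was listed at 0 in WT. The part of endothelial RNA in the Mrc1 value was not tested.

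Clec10a and Mgl2 encode the macrophage galactose-type lectins CD301a and CD301b, which bind galactose and N-acetylgalactosamine on glycoproteins. They are neighbouring genes on mouse chromosome 11 and arose as near copies, which matters for their values because fragments from 1 can match the other. In GENCODE M21 their longest coding sequences held 924 bases in Clec10a and 1143 bases in Mgl2. They were 91.4% identical over 907 aligned bases, with 183 identical bases in a row, and bases opposite a gap were left out. Of the windows of 60 bases without a gap, those with the fewest and the most differences are shown. Differing bases are in capitals and positions are counted from the start codon.
Clec10a, coding bases 66 to 125: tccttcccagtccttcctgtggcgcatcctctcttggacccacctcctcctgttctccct
Mgl2, coding bases 114 to 173: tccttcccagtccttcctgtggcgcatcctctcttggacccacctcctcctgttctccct
Clec10a, coding bases 410 to 469: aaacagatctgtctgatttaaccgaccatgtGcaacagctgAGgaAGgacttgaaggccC
Mgl2, coding bases 458 to 517: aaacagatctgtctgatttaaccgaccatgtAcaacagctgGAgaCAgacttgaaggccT
The first pair has 0 differences, and the second, the least alike ungapped window, has 6. Of the 50-base windows of the longest transcript of each gene, 10.6% in Clec10a and 15.3% in Mgl2 also occurred in the other gene. How such fragments were counted is not known from the sources at hand.

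Even so, the 2 lectins had very different levels. Clec10a stood at 18.3 FPKM in KO and 19.5 FPKM in WT, a ratio of 0.940 (counting interval 0.859 to 1.03) whose interval includes 1. Scaled to the pan-macrophage markers the interval was 0.750 to 0.897, below 1. Mgl2 stood at 0.21 FPKM in KO and 0.17 FPKM in WT, about 8 fragments in KO and 6 in WT. Clec10a was therefore 87.2 times Mgl2 in KO and 115 times Mgl2 in WT. A difference in Mgl2 was not detectable at this depth, since its counting interval ran from 0.409 to 4.70. Both lectins are also known from dendritic cells. Of 10 dendritic cell markers 4 were measured, 1 of them (Fscn1) higher in KO by the size rule. None of the 10 was at 0 in either library, and their sums were 35.9 FPKM in KO and 19.2 FPKM in WT. Clec9a alone gave 25.8 FPKM of this sum in KO and 15.4 FPKM in WT. Xcr1, also measured, went the other way, at 0.50 FPKM in KO and 1.20 FPKM in WT. Cd209a, a marker of the dendritic cells that carry CD301b, was at 0.49 FPKM in KO and 0.04 FPKM in WT. The part of dendritic cell RNA in the Clec10a value was not tested.

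The arginases split. Arg1 encodes the cytosolic arginase that turns arginine into ornithine and urea, and in mouse macrophages it is a standard IL-4 response gene. It was at 5.80 FPKM in KO and 6.50 FPKM in WT, a ratio of 0.892 whose counting interval of 0.745 to 1.07 includes 1. Scaled to the pan-macrophage markers the interval was 0.650 to 0.934, below 1. Hepatocyte markers had ratios mostly above 0. All 28 hepatocyte markers were measured, 26 had a ratio above 0 and 5 were higher in KO by the size rule, with sums of 1305 FPKM in KO and 673 FPKM in WT. The largest of them, Trf, at 642 FPKM in KO and 306 FPKM in WT, is also known from macrophages. The part of hepatocyte RNA in the Arg1 value was not tested.

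Arg2 encodes the mitochondrial arginase, which many cell types can induce. It stood at 5.85 FPKM in KO, against 1.78 FPKM in WT, a ratio of 3.29 (counting interval 2.33 to 4.65) and a log2 ratio of 1.30. Of all measured genes, 0.826% had a higher log2 ratio. Arg2 was about level with Arg1 in KO, at 1.01 times its FPKM, and below it in WT, at 0.274 times. In number this rests on about 149 fragments in KO and 46 in WT, the fewest of the genes above the floor. The last exon of Arg2 overlaps the last exon of Vti1b on the opposite strand, and 17.1% of the 50-base windows of the Arg2 transcript lie in Vti1b transcripts. Counting Gm48780 as well, 21.2% of the windows were shared. The library kit as described does not mark strand, so reads in that overlap cannot be told apart. Vti1b, a SNARE protein gene, was at 30.9 FPKM in KO and 37.4 FPKM in WT, a log2 ratio of -0.27. It was named here after its values were seen, and the part of its reads in the Arg2 value was not tested. Several neutrophil markers were also higher in KO. Of 15 neutrophil markers 9 were measured and 7 were higher in KO by the size rule, of which Ltf and Camp reached the floor in the KO library alone. The median log2 ratio was 1.59 over the measured markers and 0.89 over all 15 without the floor, with sums of 120 FPKM in KO and 42.3 FPKM in WT. Csf3r, short of the rule, alone gave 51.3 FPKM of this sum in KO and 27.3 FPKM in WT. Among markers under the floor, Ly6g stood at 0.12 FPKM in KO and 0.18 FPKM in WT, and Stfa2l1 at 0.13 FPKM in both. Stfa2 was listed at 0 in both libraries and Elane in WT, and the part of neutrophils in the Arg2 value was not tested.

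Il10 and Pdgfb encode secreted factors, and both were higher in KO. Il10, the cytokine that restrains inflammatory gene expression in macrophages through its own receptor and STAT3, was at 19.2 FPKM in KO and 7.54 FPKM in WT. The ratio was 2.55 (counting interval 2.13 to 3.04) and the log2 ratio 1.24, with 0.966% of measured genes above it. Il10 was level with Clec10a in KO, at 1.05 times its FPKM, and below it in WT, at 0.387 times. B cells and T cells can also make IL-10, and the summed levels of their markers were higher in KO. Of 10 B and plasma cell markers 5 were measured and 2, Cd79a and Cd79b, were higher in KO by the size rule, with sums of 33.6 FPKM in KO and 14.2 FPKM in WT. Of 10 T cell markers 5 were measured and 1, Icos, was higher by the rule, with sums of 42.1 FPKM in KO and 19.4 FPKM in WT. Icos alone gave 33.1 FPKM of this sum in KO and 13.9 FPKM in WT, and among markers under the floor Cd3e stood at 0.34 FPKM in KO and 0.49 FPKM in WT and Derl3 at 0.30 FPKM in KO and 0.46 FPKM in WT. None of the markers in these lists was at 0 in either library, and their part in the Il10 value was not tested.

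Pdgfb encodes the B chain of platelet-derived growth factor, a growth factor for stellate cells and pericytes. It had the largest ratio of the set, at 11.5 FPKM in KO and 3.30 FPKM in WT. The ratio was 3.48 (counting interval 3.02 to 4.02) and the log2 ratio 1.54, rank 46 from the top among the 10770 measured genes. Endothelial cells are a known source of Pdgfb, and most of their markers were higher in KO, though not evenly. The median log2 ratio was 1.41 over the 13 measured sinusoidal endothelial markers and 1.24 over all 15 without the floor. Tek, Wnt2 and Cldn5 reached the floor in the KO library alone. The VEGF receptor gene Kdr was at 14.9 FPKM in KO and 4.42 FPKM in WT. Stab2, the most abundant of the 13, was at 118 FPKM in KO and 79.9 FPKM in WT. Dnase1l3 was at 30.9 FPKM in KO and 31.5 FPKM in WT, a log2 ratio of -0.028. Platelet markers were mostly under the floor. Of 10 platelet and megakaryocyte markers only Clec1b, which Kupffer cells also express, was measured, at 352 FPKM in KO and 325 FPKM in WT, the others stood at 0.62 FPKM or less, and Gp1bb was listed at 0 in both libraries. The part of endothelial or platelet RNA in the Pdgfb value was not tested.

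**Figure D2:**
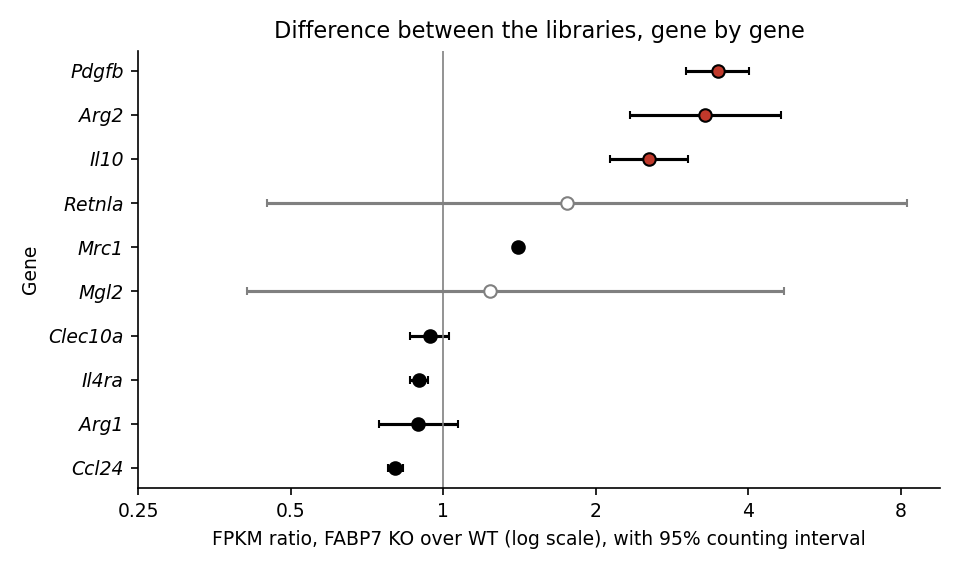
FPKM ratio of FABP7 KO over WT (x axis, log scale, without a pseudocount) for each gene (y axis), with its 95% counting interval. Red points passed the size rule, open grey points are the 2 genes under 1 FPKM in both libraries, whose intervals of 0.449 to 8.23 and 0.409 to 4.70 span 1, and the other black points lie between 0.803 and 1.40.

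The chemokine gene Ccl24 and the receptor gene Il4ra had moderately lower values in KO. Ccl24, also called eotaxin-2, attracts eosinophils and is made by IL-4 treated macrophages. It stood at 250.2 FPKM in KO, against 311 FPKM in WT, a ratio of 0.803 (counting interval 0.776 to 0.832) that lay below 1 and short of the size rule. It was rank 258 of the measured genes in KO and rank 225 in WT. Mrc1 was 1.93 times Ccl24 in KO and 1.11 times Ccl24 in WT, since the 2 highest genes of the set had ratios on opposite sides of 1. Il4ra, the receptor chain shared by IL-4 and IL-13, was at 42.6 FPKM in KO and 47.6 FPKM in WT. Its ratio of 0.895 (counting interval 0.860 to 0.932) was also below 1 and short of the size rule. By log2 ratio, 80.5% of all measured genes lay above Ccl24 and 67.4% above Il4ra.

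Retnla encodes RELMα, a small secreted protein that IL-4 and STAT6 induce strongly in mouse macrophages. It stood at 0.65 FPKM in KO and 0.37 FPKM in WT, about 7 fragments in KO and 4 in WT, and a difference was not detectable at this depth. The 250 bases before its start site are shown because Retnla was 1 of 4 genes found in the RefSeq promoter table (Mrc1, Il4ra, Mgl2 and Retnla) and held a match, absent from the other windows, to TTCNNNNGAA, the letters STAT6 is known to prefer. The motif reads the same on both strands. The upstream bases of Mrc1, the highest gene of the set in both libraries, are given for comparison. Both come from RefSeq on GRCm38.p6, plus strand, and capitals mark the motif.
Retnla, chr16:48842359-48842608: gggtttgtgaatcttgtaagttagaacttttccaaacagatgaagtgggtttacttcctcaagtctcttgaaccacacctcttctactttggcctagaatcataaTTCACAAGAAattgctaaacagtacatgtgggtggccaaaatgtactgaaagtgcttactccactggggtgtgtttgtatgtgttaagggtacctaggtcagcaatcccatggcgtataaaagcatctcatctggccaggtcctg
Mrc1, chr2:14229164-14229413: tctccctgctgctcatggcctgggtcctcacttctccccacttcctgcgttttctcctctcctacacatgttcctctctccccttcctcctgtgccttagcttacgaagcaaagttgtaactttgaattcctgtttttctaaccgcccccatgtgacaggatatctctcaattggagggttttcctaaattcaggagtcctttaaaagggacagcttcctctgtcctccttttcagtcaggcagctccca
The match in Retnla starts 145 bases before the start site. Of 32851 such windows in the table, 5.85% held the motif. Arg1, Arg2, Il10, Clec10a, Ccl24 and Pdgfb were not matched in the table. A match describes the letters only, and these libraries do not measure binding.

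**Figure D3:**
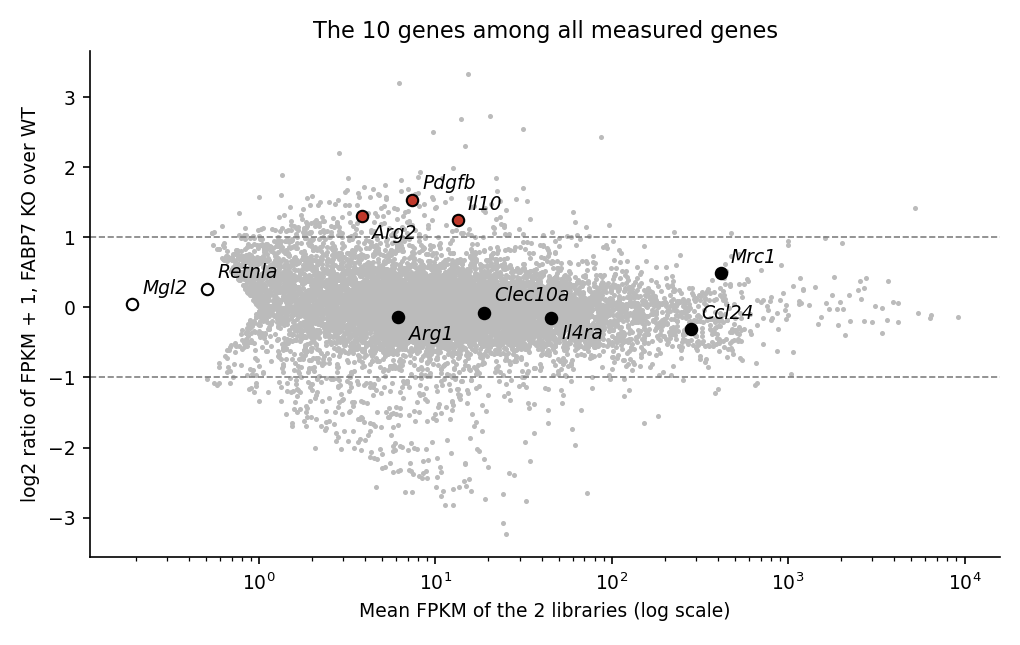
Ratio of KO to WT on the log2(FPKM + 1) scale (y axis), against the mean FPKM of both libraries on a log axis for all measured genes (grey, Fabp7 left out for scale) and the 10 genes (labelled). Pdgfb, Arg2 and Il10 lie above the dashed line at 1, the open points Retnla and Mgl2 are under the floor, and the other 5 lie between -0.31 and 0.49.

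The genes that carry the IL-4 and IL-13 signal were expressed, and none passed the size rule. Of 16 listed receptors, kinases and regulators 10 were measured and 0 were higher or lower by the rule. The median log2 ratio was 0.077, or -0.12 when scaled to the pan-macrophage markers. Stat6 was at 96.6 FPKM in KO and 76.3 FPKM in WT, and Il13ra1, the partner of IL4Rα for IL-13, at 50.01 FPKM in KO and 52.5 FPKM in WT. The phosphatase gene Ptpn6 was the most abundant of the list, at 307 FPKM in KO and 282 FPKM in WT. The ligands themselves were at the limit of detection. Il13 was listed at 0 in both libraries, and Il4 at 0 in KO and 0.09 FPKM in WT. Of 12 markers of basophils, mast cells and eosinophils, which make or follow these cytokines, 4 were measured with sums of 8.99 FPKM in KO and 8.02 FPKM in WT. Mcpt8, Cpa3, Fcer1a, Prg2 and Epx were listed at 0 in both.

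Other IL-4 inducible macrophage genes were divided as well. Of 24 listed genes found in the files 16 were measured, 2 were higher, 1 was lower, and the median log2 ratio was 0.42, or 0.068 without the floor. Klf4, a transcription factor of macrophages and of endothelial cells, was at 11.3 FPKM in KO and 2.80 FPKM in WT, a log2 ratio of 1.69. Flt1, a VEGF receptor gene best known from endothelial cells, had a FPKM ratio of 3.37 and stood at 0.89 FPKM in WT, just past the rule with a log2 ratio of 1.08, and it fell short of the rule when scaled to the pan-macrophage markers. Socs2, a feedback inhibitor of cytokine signalling, fell to 3.91 FPKM in KO, against 9.42 FPKM in WT. Tgm2, the transglutaminase often used as an M2 marker, was the most abundant gene of the list, at 375 FPKM in KO and 450.2 FPKM in WT, short of the rule. Chil3, which encodes the M2 marker Ym1, was low at 2.64 FPKM in KO and 1.47 FPKM in WT, and Chil4 and Alox15 were listed at 0 in both libraries.

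All 14 genes of the IL-10 receptor, signalling and target list were measured, and all 14 had a ratio above 0, or 12 when scaled to the pan-macrophage markers, without Dusp1 and Il1rn. Of all measured genes 50.3% had a ratio above 0. The 14 genes had a median log2 ratio of 0.50, or 0.35 after that scaling. Il4i1, a secreted amino acid oxidase, passed the rule, at 6.99 FPKM in KO and 2.13 FPKM in WT, and the others stayed short of the rule. Il10ra, the ligand-binding receptor chain, was at 115 FPKM in KO and 62.6 FPKM in WT, and Il10rb at 135 FPKM in KO and 112 FPKM in WT. Zfp36, which promotes decay of cytokine mRNA, was at 198 FPKM in KO and 108 FPKM in WT. Several genes of the list, Zfp36, Dusp1 and Socs3 among them, also respond to other stimuli, so the list does not isolate IL-10 signalling.

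Around the arginases, 22 of 26 genes of arginine and polyamine metabolism were measured. The median log2 ratio was -0.15, and 1 gene, Cps1, was at the limit of the rule with a log2 ratio of 1.00, and short of it when scaled to the pan-macrophage markers. Cps1, the entry enzyme of the urea cycle in hepatocytes, was at 3.70 FPKM in KO and 1.35 FPKM in WT and is 1 of the hepatocyte markers above. Odc1, which makes putrescine from the ornithine that arginase yields, was at 34.4 FPKM in KO and 61.4 FPKM in WT, a log2 ratio of -0.82 that was short of the rule, and past it when scaled to the pan-macrophage markers. Sat1, which acetylates polyamines for export, was the most abundant, at 811 FPKM in KO and 758 FPKM in WT. Nos2, the enzyme that competes with arginase for arginine in classical activation, was near 0, at 0.08 FPKM in KO and 0.11 FPKM in WT.

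The ligand families of Pdgfb, Ccl24 and Retnla showed few measured genes. Of the 5 other PDGF ligand and receptor genes 2 were measured, and neither passed the rule. Pdgfc was at 32.5 FPKM in KO and 32.4 FPKM in WT, and Pdgfa at 2.56 FPKM in KO and 0.89 FPKM in WT, a log2 ratio of 0.91. The receptor genes Pdgfra and Pdgfrb, which mark stellate cells and fibroblasts, were under 1 FPKM in both libraries. Pdgfra was at 0.50 FPKM in KO and 0.13 FPKM in WT, and Pdgfrb at 0.97 FPKM in KO and 0.31 FPKM in WT. Of 12 stellate cell and fibroblast markers 7 were measured, all with a ratio above 0, and Lrat, Des and Reln reached the floor in KO alone. The sums were 166 FPKM in KO and 67.0 FPKM in WT. Of 6 genes of the eotaxin and RELM families and their receptors 3 were measured. Retnlg, the RELM gene of neutrophils, was at 4.22 FPKM in KO and 1.30 FPKM in WT and passed the rule, and Ccr3, the eotaxin receptor gene, was at 2.57 FPKM in KO and 4.83 FPKM in WT.

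Classical activation genes and other M2 markers were set beside the 10 genes. Of 15 classical genes 10 were measured, 2 were higher and 0 lower, with a median log2 ratio of 0.32. The median was 0.058 without the floor, and 0.14 when scaled to the pan-macrophage markers. Il1b, at 148 FPKM in KO and 26.7 FPKM in WT, differed more than Il10, so that Il10 was 0.129 times Il1b in KO and 0.283 times in WT. Tnf was at 11.1 FPKM in KO and 5.02 FPKM in WT, just past the rule with a log2 ratio of 1.01, and short of it when scaled to the pan-macrophage markers. Il6 was at 8.21 FPKM in KO and 3.98 FPKM in WT, short of the rule, and Il10 was 2.34 times Il6 in KO and 1.89 times in WT. All 5 scavenger receptors that serve as M2 markers were measured and 4 had a ratio below 0. None passed the rule, or 1, Marco, when scaled to the pan-macrophage markers. Cd163 was at 123 FPKM in KO and 216 FPKM in WT, a log2 ratio of -0.80, so that Mrc1 was 3.91 times Cd163 in KO and 1.60 times in WT. These 2 widely used M2 markers thus lay on opposite sides of 0, Mrc1 at 0.49 and Cd163 at -0.80.

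**Figure D4:**
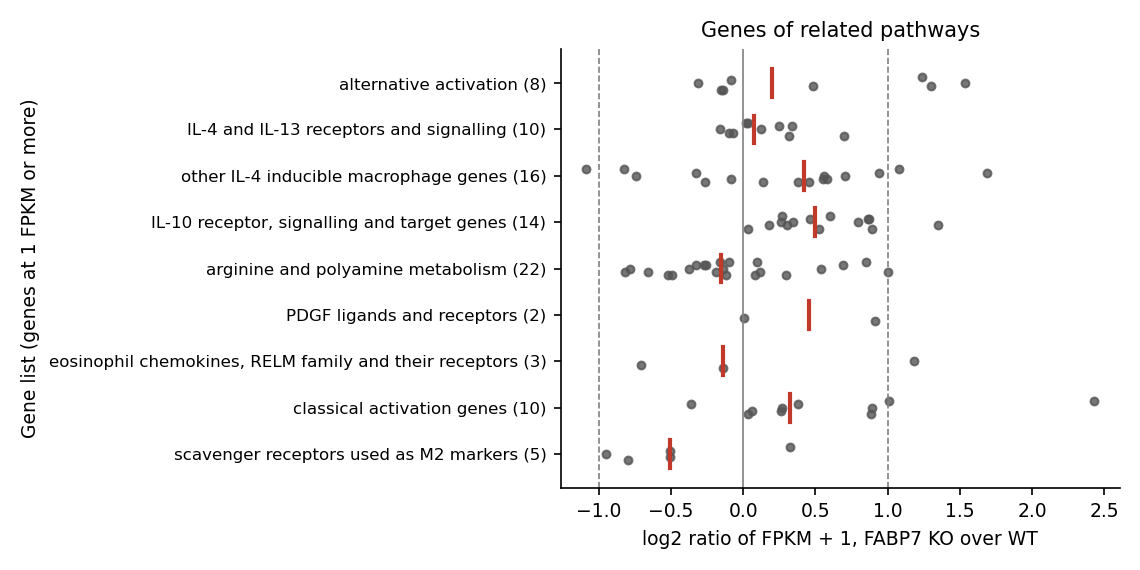
Ratio of KO to WT on the log2(FPKM + 1) scale (x axis) in the 10 genes and 8 related lists (rows, number measured in brackets). Points are single genes at or above the floor and red lines are list medians. The IL-10 list lies wholly right of 0 with a median of 0.50 (12 of 14 genes when scaled to the pan-macrophage markers), and the scavenger receptors have their median at -0.51.

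**Figure D5:**
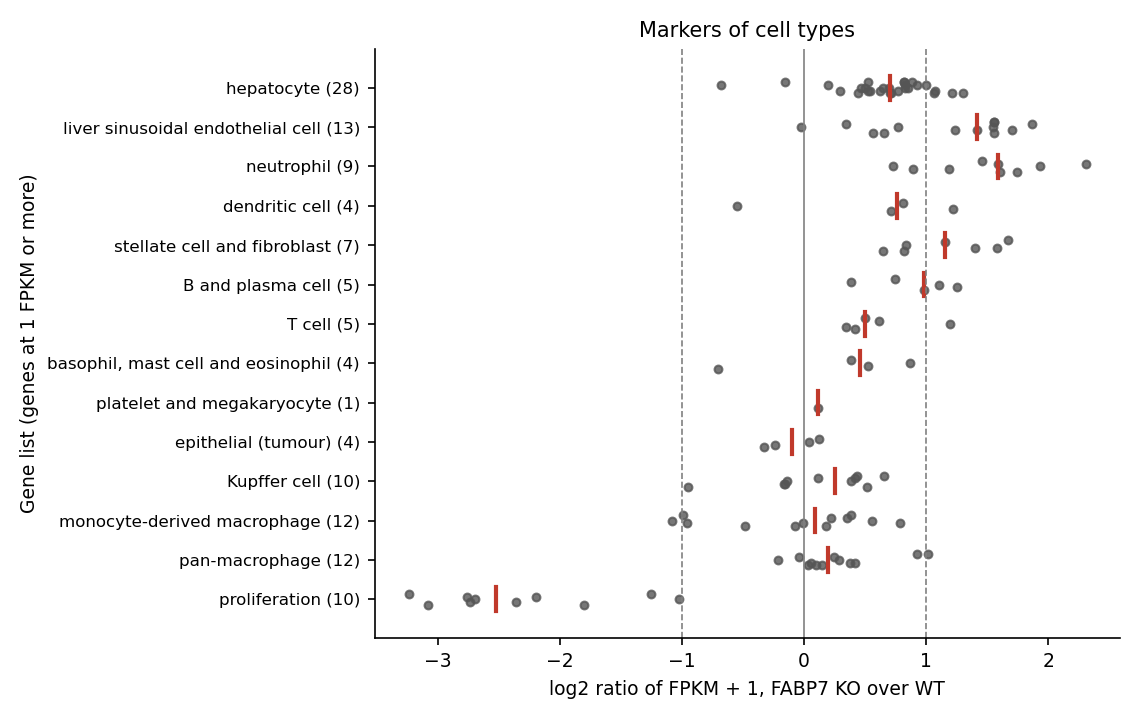
The same ratio for markers of 14 cell types and states (rows, number measured in brackets), with list medians in red. Sinusoidal endothelial (1.41), neutrophil (1.59) and stellate cell markers (1.15) lie right of the Kupffer cell (0.25) and pan-macrophage (0.20) markers, and proliferation genes lie left of -1. Without the floor the medians were 1.24 for sinusoidal endothelial, 0.89 for neutrophil and 0.73 for stellate cell markers, and unchanged for the 2 macrophage lists.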

How the data were processed

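Poly(A) RNA of F4/80-selected liver macrophages was sequenced on the Illumina platform, 1 library per genotype. The values deposited are FPKM, rounded by the authors to 2 decimals. Bowtie2 2.2.8 and TopHat2 2.1.1 appear in the processing notes of the submitters with no role, and the build, annotation and counter were not given in the sources used here. Tables of single libraries differed from the joint table in 0 values. Symbols came from GENCODE M21 for 22267 of 22322 IDs, and the row with the highest mean was used where rows shared one.

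Ratios are the log2 of (KO FPKM + 1) over (WT FPKM + 1) for 10770 genes at 1 FPKM or more in a library, which understates changes of low genes. Depth was found from the step of low values in genes of 1000 bases or less with 1 transcript. At the best depth 91.2% of 147 KO values and 88.4% of 155 WT values lay within 0.15 of a whole fragment, where chance gives 30.0%. The exon lengths are GENCODE's, so fragment numbers are estimates. Steps were tested on simulated data. Python 3.11.15, NumPy 2.4.6, SciPy 1.17.1, pandas 2.3.3, Biopython 1.88 and Matplotlib 3.10.9 were used.

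The genes and lists were chosen with earlier results of these data known. The naming rule took all 10 genes, and in each pathway list those past the size rule and up to 3 with the highest mean. In marker lists it took genes needed to describe a cell type, so marker genes past the size rule were not all named. Stat6, Il13ra1, Il4, Il13, Il10ra, Chil3, Chil4, Alox15, Odc1, Nos2, Pdgfa, Pdgfc, Pdgfra, Pdgfrb, Il6, Il1rn, Cd163, Socs3, Ccr3, Cd209a and some single markers were named for their roles after their values were seen. Alternatives were other pseudocounts, floors, scalings, size rules and transcript lengths. No samples could be left out.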

Additional observations from a re-analysis of the deposited data

How the results depend on the processing

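The 40 values of the 10 log2 ratios under a pseudocount of 0.1 FPKM and 3 scalings kept their side of the size rule, and none that passed it changed sign. Summing rows of a symbol and using the single-library tables gave the values already reported. The number of genes of the set past the rule was 3 under that pseudocount and each floor and scaling run, and 1 (Pdgfb) with a size rule of 1.5. The median of the set was 0.0094 with KO divided by the median ratio of the pan-macrophage markers (1.15), and -0.085 to 0.49 with each gene left out in turn. The pan-macrophage scaling shifted genes high in KO by about -0.20 on the log2 scale and genes low in KO by less. The number of genes past the rule was 1006 with a pseudocount of 0.1 FPKM and 189 with a size rule of 1.5. Higher and lower genes numbered 238 and 318, and 136 and 416 under the pan-macrophage scaling. The higher genes numbered 562 at a pseudocount of 0.1, 143 at a floor of 5 FPKM and 50 at a size rule of 1.5, where 139 were lower. Each of the 20 interval bounds kept its side of 1 with the longest transcript as length, and under scaling of the intervals, added after the data were seen, the upper bounds of Arg1 (0.934) and Clec10a (0.897) moved below 1. Scaling of the lists, also added then, moved single genes across 0 or the rule, and turned the median of the IL-4 and IL-13 list to -0.12 under the pan-macrophage scaling. No paired analysis was possible because there is 1 library per genotype. Depth limits Retnla and Mgl2. What lies behind these changes was not tested.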
